A study of Mus musculus with 16 samples.

Results

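Of the autosomal DNase hypersensitive sites (DHS) of mouse liver, 3342 were intergenic, lay near a gene and were found in males and females of both strains. A DHS is a stretch of open chromatin from which the enzyme DNase I releases many short fragments. Peaks of the 4 deposited lists on chromosomes 1 to 19 were joined wherever they overlapped by at least 1 bp, which gave 50655 regions. Members were chosen by 3 criteria: a peak in each of the 4 lists, no overlap with any annotated gene body, and a nearest transcription start site more than 2.5 kb and at most 100 kb from the edge of the region. They made up 18.6% of the 17999 autosomal regions present in all 4 lists (constitutive regions) and 6.6% of all regions.

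The study digested liver nuclei of mice of either sex from the strains C57BL/6J (here B6) and CAST/EiJ (here CAST) at 8 weeks of age, and both are inbred strains. For each of 16 libraries nuclei were treated with 32 U of DNase I for 2 min at 37 C. B6 is a classical laboratory strain and the source of the mouse reference genome, whereas CAST was bred from wild-caught Mus musculus castaneus. The 4 libraries of each sex and strain were pooled before peaks were called, so each group is 1 list, there is no replicate error, and no test between groups was possible. Nuclei came from whole liver, so that open chromatin in fewer cells and weaker opening per cell cannot be told apart.

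Distal DHS of this kind often hold enhancers, stretches of DNA where transcription factors bind and from which they act on a promoter along the same chromosome. In hepatocytes many enhancers are bound by combinations of FOXA, HNF4, HNF1, HNF6, C/EBP and NFI proteins, which together maintain the hepatocyte program. Nuclear receptors, the signal-dependent factors STAT5 and AP-1, and the circadian factors that bind E-boxes, D-boxes and RORE words also act through such sites.

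Sequences of 9 members are shown first, because the motif words inside them recur in the results. Each run is 300 bases of the plus strand of mm9, which is B6 sequence, centred on the male B6 summit. Capitals mark every match to a searched word on either strand. The first comes from the 12 strongest members and lay upstream of St3gal1, a sialyltransferase gene. Its capitals hold, from left to right, a STAT, an AP-1, a FOXA and a C/EBP word, and it spans chr15:66978131-66978430.
St3gal1: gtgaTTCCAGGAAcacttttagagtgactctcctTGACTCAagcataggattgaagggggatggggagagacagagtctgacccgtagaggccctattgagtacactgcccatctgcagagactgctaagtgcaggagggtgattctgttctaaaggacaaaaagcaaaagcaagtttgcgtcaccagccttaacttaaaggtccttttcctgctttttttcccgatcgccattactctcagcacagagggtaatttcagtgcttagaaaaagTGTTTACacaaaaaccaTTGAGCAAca

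The next 4 runs are the strongest members of listed genes with liver or clock functions and were chosen after their words had been seen. They lay near Alb (chr5:90843409-90843708), which encodes serum albumin, Cebpa (chr7:35928891-35929190), which encodes the factor C/EBPα, Cps1 (chr1:67163202-67163501), which encodes the first enzyme of the urea cycle, and Hlf (chr11:90279267-90279566), which encodes a factor that binds D-boxes. Their capitals mark HNF6 and NFI words for Alb, FOXA and HNF1 words for Cebpa, and E-box, C/EBP and FOXA words for Cps1. The Hlf member held 3 E-boxes, a RORE word and an NRF1 word.
Alb: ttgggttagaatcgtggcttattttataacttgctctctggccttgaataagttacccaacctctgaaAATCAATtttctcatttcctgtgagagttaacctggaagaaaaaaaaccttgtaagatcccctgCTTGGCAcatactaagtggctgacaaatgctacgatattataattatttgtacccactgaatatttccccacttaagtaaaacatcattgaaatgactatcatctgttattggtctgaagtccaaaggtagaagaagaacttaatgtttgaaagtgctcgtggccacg
Cebpa: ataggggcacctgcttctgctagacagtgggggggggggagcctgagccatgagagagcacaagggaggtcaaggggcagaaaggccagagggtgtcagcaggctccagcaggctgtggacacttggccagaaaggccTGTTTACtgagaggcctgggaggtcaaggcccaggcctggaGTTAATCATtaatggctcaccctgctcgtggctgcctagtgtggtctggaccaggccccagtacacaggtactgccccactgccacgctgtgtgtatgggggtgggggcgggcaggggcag
Cps1: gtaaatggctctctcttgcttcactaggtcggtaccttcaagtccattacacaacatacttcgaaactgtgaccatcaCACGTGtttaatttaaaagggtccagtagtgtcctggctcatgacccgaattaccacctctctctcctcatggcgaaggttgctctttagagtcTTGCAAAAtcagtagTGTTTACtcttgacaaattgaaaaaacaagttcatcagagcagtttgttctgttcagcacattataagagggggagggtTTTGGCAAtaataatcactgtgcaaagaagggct
Hlf: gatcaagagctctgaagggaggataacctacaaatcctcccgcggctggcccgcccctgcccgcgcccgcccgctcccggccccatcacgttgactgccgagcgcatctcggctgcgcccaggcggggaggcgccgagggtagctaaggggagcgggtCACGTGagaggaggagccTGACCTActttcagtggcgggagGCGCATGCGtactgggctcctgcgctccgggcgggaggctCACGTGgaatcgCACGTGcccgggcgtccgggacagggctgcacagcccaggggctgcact

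The last 4 runs were picked, after their values were seen, from the 5 members of a direction with the largest ratios held in both strains or both sexes. They were nearest to Gsta1, a glutathione S-transferase gene (male higher, chr9:78064939-78065238), 9030619P08Rik (CAST higher, chr15:75207105-75207404), Gm13185 (CAST higher, chr2:3705191-3705490) and Klrb1c, a natural killer cell receptor gene (B6 higher, chr6:128753085-128753384). No searched word lay in the Gsta1 run, while the others held HNF1 and GR words, NFI and FOXA words, and C/EBP and CTCF core words in that order.
Gsta1: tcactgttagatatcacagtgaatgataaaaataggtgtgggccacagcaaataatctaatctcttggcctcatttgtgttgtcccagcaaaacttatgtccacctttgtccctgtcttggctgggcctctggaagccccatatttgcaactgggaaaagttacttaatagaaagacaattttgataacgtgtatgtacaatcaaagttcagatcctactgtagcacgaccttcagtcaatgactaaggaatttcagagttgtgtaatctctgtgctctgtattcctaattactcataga
9030619P08Rik: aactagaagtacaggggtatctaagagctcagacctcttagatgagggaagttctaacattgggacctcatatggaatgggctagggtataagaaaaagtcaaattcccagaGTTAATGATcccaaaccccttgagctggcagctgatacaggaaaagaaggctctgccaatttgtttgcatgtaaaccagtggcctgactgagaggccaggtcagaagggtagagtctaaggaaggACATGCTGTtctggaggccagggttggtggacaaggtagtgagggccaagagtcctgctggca
Gm13185: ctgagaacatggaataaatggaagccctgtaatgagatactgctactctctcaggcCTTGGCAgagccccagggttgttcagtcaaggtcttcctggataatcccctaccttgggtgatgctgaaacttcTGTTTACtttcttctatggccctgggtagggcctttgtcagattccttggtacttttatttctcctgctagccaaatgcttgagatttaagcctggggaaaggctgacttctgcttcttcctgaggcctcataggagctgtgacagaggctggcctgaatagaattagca
Klrb1c: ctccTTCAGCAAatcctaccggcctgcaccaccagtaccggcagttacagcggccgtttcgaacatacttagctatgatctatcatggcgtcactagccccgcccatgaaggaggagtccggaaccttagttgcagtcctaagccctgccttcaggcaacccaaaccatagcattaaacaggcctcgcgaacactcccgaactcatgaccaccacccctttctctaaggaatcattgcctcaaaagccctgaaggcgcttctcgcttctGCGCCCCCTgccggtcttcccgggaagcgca

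The 4 lists held from 24888 peaks (female CAST) to 39562 peaks (male CAST), and the background of reads over the whole genome ran from 7.94 reads in female CAST to 15.3 in male B6. Tissue identity was checked by a peak within 1 kb of a start site in all 4 lists. This held for 5 of 6 hepatocyte genes, Apoa1 having peaks only in the male lists. It held for 0 of 4 Kupffer cell genes, 1 of 4 endothelial genes (Stab2), 0 of 4 stellate cell genes and 1 of 4 bile duct genes (Sox9), and for 0 of 6 genes of other organs. The lists differed in this respect: the male B6 list had a peak at all 4 endothelial genes, the female B6 list at 2 (Stab2 and Kdr) and either CAST list at 1 (Stab2), and 2 of 4 stellate genes had one in each male list, 1 in female B6 and 0 in female CAST. At Stab2 itself the CAST lists were higher, with a fold enrichment of 8.13 and 5.45 against 3.59 and 2.81 in B6. The part of such cells in the sex and strain ratios below was not tested.

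The fold enrichment of a peak is the number of fragments stacked at its summit divided by the background of reads around it, with 1 added to both. Among members its median was 5.08 in B6 males, 3.65 in B6 females, 5.63 in CAST males and 4.49 in CAST females. Those medians were close to the 5.35, 3.88, 5.8 and 4.66 of all constitutive regions in the same order. In every list they lay above the medians of the 3436 constitutive intronic regions (4.65, 3.35, 5.33 and 4.23) and below those of the 9797 constitutive promoter regions (5.81, 4.29, 6.08 and 4.96). Presence in 4 lists was itself a criterion, so these levels are a description. The middle 90% of members ran from 2.75 to 11.2 in male B6 and from 2.32 to 7.89 in female B6, so the differences between the medians of the classes were small beside the spread within each.

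**Figure D1:**
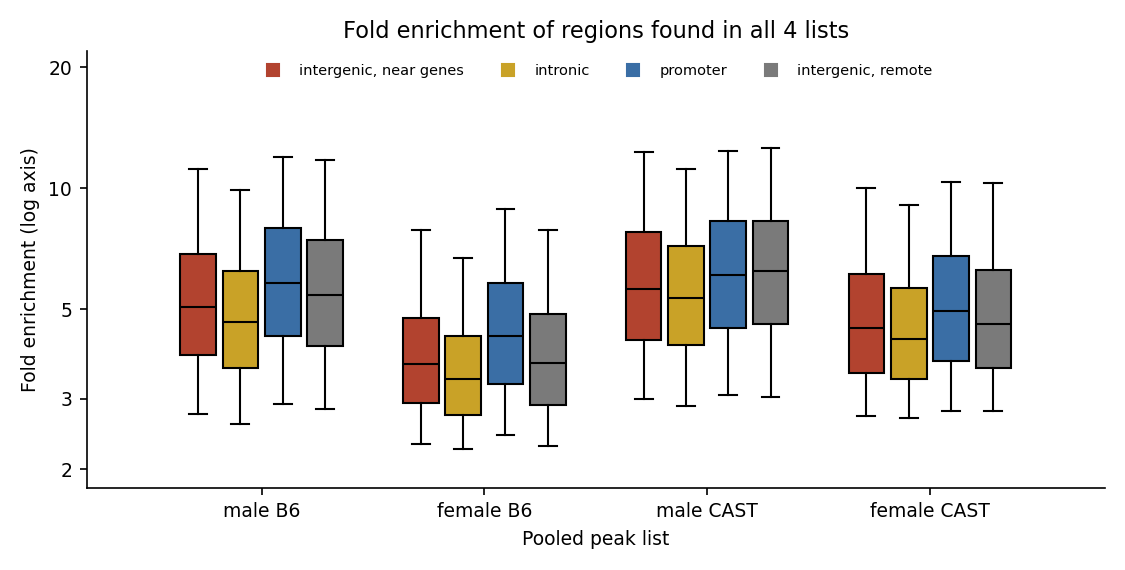
Fold enrichment on a log axis in each pooled list for constitutive intergenic regions near genes, intronic, promoter and remote intergenic regions. Boxes span the quartiles, lines are medians and whiskers the 5th and 95th percentiles over regions; in male B6 the members' median of 5.08 lies between 4.65 for intronic and 5.81 for promoter regions.

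Behind these values stood a median summit pileup of 130 reads in B6 males, 67 in B6 females, 136 in CAST males and 51 in CAST females. The joined regions were 857 bp wide at the median, against 818 bp for intronic and 991 bp for promoter regions. Summits of a member lay close together in different lists, at a median of 41 bp between the sexes in B6 and in CAST, 36 bp between the strains in males and 54 bp in females. In 61.3% of members the male B6 and male CAST summits were within 50 bp of each other.

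Fold enrichment ranked the 3342 members in a like order in the 4 lists. Spearman's rho across members was 0.85 between the sexes in B6, 0.86 between the sexes in CAST, 0.77 between the strains in males and 0.70 between the strains in females. Each value was lower than that over all constitutive regions (0.89, 0.89, 0.84 and 0.79). These are correlations across sites that share their library, depth and genome position, and are given without a test.

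Of 12177 intergenic regions near genes in any list, 39.7% were in a single list and 27.4% in all 4. In comparison 59.1% of promoter regions, 22.3% of intronic regions and 19% of remote regions were in all 4. Regions at the distance limits are given as a description. Just inside the lower limit lay the members near Rpl27a-ps1 (2504 bp) and Fgg (2508 bp), which encodes the fibrinogen gamma chain, with a fold enrichment in male B6 of 5.73 and 4.3. Just outside it were regions near Tle2 (2495 bp, 4.29) and Agxt2l1 (2487 bp, 5.76). At the upper limit the outermost members were near 1700060C16Rik (99916 bp, 6.1) and S1pr1 (99175 bp, 8.13), and the first regions beyond it near F930017D23Rik (100608 bp, 3.55) and Rplp1 (100759 bp, 4.5).

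The median member lay 20773 bp from the nearest start site, with quartiles at 9649 and 42769 bp. Upstream positions accounted for 2172 of 3342 members, or 65% (95% Wilson interval 63.4 to 66.6, which like every interval here covers counting error only). The upstream share was 75.9% of the 299 members within 5 kb and 60% of the 657 members beyond 50 kb. Gene bodies, which lie downstream of start sites, were barred by the rule, so part of this asymmetry is set by the choice of members. Median fold enrichment in male B6 was 4.59 within 5 kb and 5.46 beyond 50 kb, and female CAST went from 4.15 to 4.75.

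**Figure D2:**
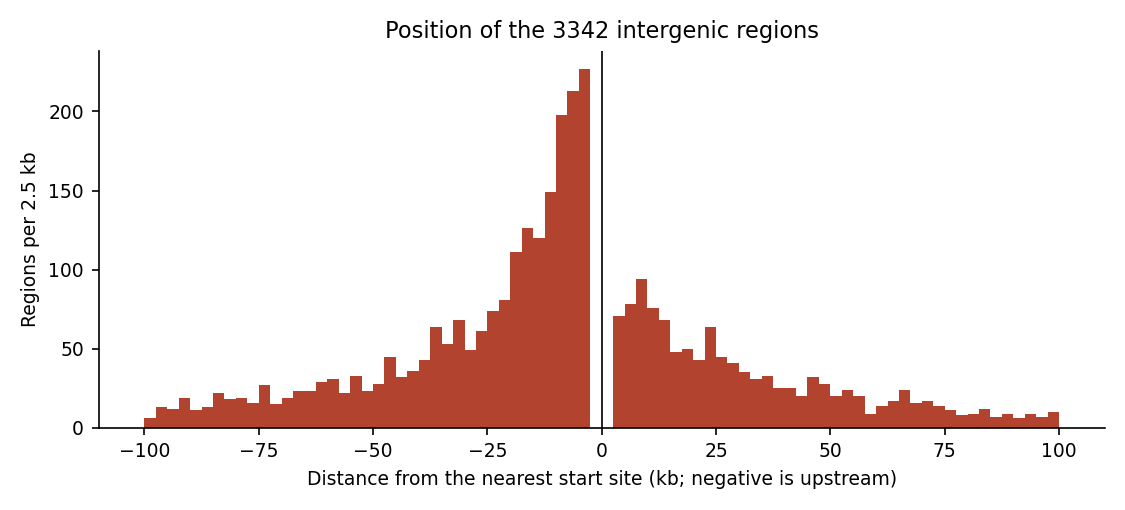
Distance of the 3342 members from the nearest start site in kb, upstream as negative values, counted in bins of 2.5 kb. The empty strip around 0 is the lower limit of the rule, and 2172 members lie on the upstream side.

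The nearest start site belonged to a protein-coding gene for 87.6% of members, to a processed transcript for 7.03% and to a lincRNA for 5.33%. In all, 2201 genes were nearest to at least 1 member, of which 1531 had exactly 1. Members were often neighbours of other DHS: 76% lay within 10 kb of another region of any list, against 81.2% of intronic and 62.4% of promoter regions. Another member was within 10 kb for 1215 members, and these formed 511 runs.

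In 34 of those runs there were 4 or more members, and the longest held 7. One run of 7 spanned 27682 bp at chr9:78353914-78381595, upstream of Eef1a1, a translation elongation factor gene. Its strongest member (chr9:78359412-78360160) had a fold enrichment of 9.14 in B6 males, 5.74 in B6 females, 12.5 in CAST males and 9.37 in CAST females. The weakest in male B6 (chr9:78381004-78381595) had 2.65, 2.34, 2.75 and 3.08 in the same order, so members of 1 run spanned levels from near the 5th percentile to well above the median. The other run of 7 lay upstream of BC031353 and spanned 36156 bp.

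Vegfa, which encodes a growth factor for blood vessels, was nearest to 11 members, more than any other gene. Of these, 3 were upstream and 8 downstream, at distances from 4724 to 62602 bp. The strongest in B6 (chr17:46140914-46141674) had a fold enrichment of 9.08 in males and 5.83 in females, against 4.45 and 4.18 in CAST. A second one (chr17:46152744-46153597) went the other way, with 4.16 and 3.12 in B6 and 8.18 and 5.3 in CAST. Members of 1 gene therefore did not share a strain pattern. Next came 3930402G23Rik and Gm6843 with 9 members each and Akr1d1 with 8. A group of 6 genes had 7 members each, namely 4732465J04Rik, 9130204K15Rik, BC031353, Eef1a1, Gm10293 and Minpp1, the last encoding an inositol polyphosphate phosphatase.

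Akr1d1 encodes the steroid reductase of bile acid synthesis, and 7 of its 8 members lay downstream. The strongest (chr6:37546868-37547734) had a fold enrichment of 9.13 in B6 males, 5.82 in B6 females, 10.1 in CAST males and 8.25 in CAST females. At chr6:37554417-37555200 the 4 values were 3.78, 2.7, 4.27 and 6.89, so that female CAST was highest there. At chr6:37567271-37568084 they were 2.42, 3.07, 2.45 and 4.82, with both female lists above both male lists.

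Members lay nearest to many genes with a role in hepatocytes. A member was nearest to 1929 of 21281 autosomal protein-coding genes, or 9.06%. This share was 12 of 30 (40%) for hepatocyte transcription factors, 22 of 56 (39.3%) for plasma proteins and 25 of 58 (43.1%) for enzymes of glucose, lipid and amino acid metabolism. It was 12 of 49 (24.5%) for cytochromes P450 of drug and steroid metabolism, 5 of 16 (31.2%) for growth hormone signalling, 7 of 18 (38.9%) for the circadian clock and 13 of 29 (44.8%) for immediate early and stress response genes. Markers of other cells had members for 0 of 11 Kupffer cell genes, 2 of 12 endothelial genes, 2 of 12 stellate cell genes and 2 of 10 bile duct genes, and 0 of 24 neuron and muscle genes had one. Genes differ in how much intergenic sequence surrounds them, no list was matched for this, and no test of the lists was made.

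Among transcription factors, Cebpa had 5 members, Ppara 5, Nr5a2 4 and Nr0b2 2. Ppara encodes a nuclear receptor that drives fatty acid oxidation. Its strongest member (chr15:85550649-85551383) lay 14030 bp upstream and had a fold enrichment of 9.14 in B6 males, 6.51 in B6 females, 12.2 in CAST males and 8.72 in CAST females. Nr5a2 encodes a receptor that controls bile acid and cholesterol genes, and its strongest member (chr1:138862758-138864108) had 12.5, 11, 13.4 and 11.7. Female B6 was the lowest list at both sites, as in the medians over members. The other 4 members of Ppara had from 2.64 to 4.36 in male B6.

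Alb was the plasma protein gene with most members, 6, all of them upstream, at 10417 to 45670 bp. The outermost (chr5:90843086-90844245), shown above as sequence, had a fold enrichment of 15.6 in B6 males, 12 in B6 females, 15.8 in CAST males and 14.9 in CAST females. The innermost (chr5:90878839-90879498) had 3.46, 2.59, 3.27 and 3.04. The most distant site was thus the strongest in every list, and at chr5:90876463-90877233 both CAST values (8.3 and 9.45) exceeded both B6 values (4.68 and 3.57). Apob, which encodes the structural protein of lipoproteins, had 4 members, of which that at chr12:7956589-7957577 reached 13.7, 10.7, 17.2 and 14. Mbl2 had 3 members and Ahsg 2.

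Cyp7a1, the rate-limiting enzyme of bile acid synthesis, had 4 members, all downstream. The farthest (chr4:6166007-6166809), 35969 bp away, was the strongest, with a fold enrichment of 7.86 in B6 males, 5.2 in B6 females, 8.99 in CAST males and 7.97 in CAST females. Cyp3a11 had 3 members, and Cyp17a1 and Cyp1a2 had 2 each. Of the metabolic enzymes, Cps1, G6pc and Scd1 had 4 members each. G6pc encodes glucose-6-phosphatase, and its member at chr11:101212293-101213545 had 4.82 and 3.32 in B6 against 2.52 and 3 in CAST, while that at chr11:101217105-101217729 had 3.64 and 3.26 in B6 against 5.89 and 5.89 in CAST. Scd1 encodes stearoyl-CoA desaturase, and its strongest member had 10.4, 7.89, 12 and 9.57.

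Growth hormone signalling was represented by Bcl6, a repressor, with 4 members, and by Egfr, Ghr and Igfbp2 with 3 each. Ghr encodes the growth hormone receptor, and its member 24290 bp upstream (chr15:3557782-3558647) had a fold enrichment of 6.62 and 5.82 in the male lists against 3.42 and 2.96 in the female lists. After centring on the median ratio of all constitutive regions, the log2 of male over female was 0.54 in B6 and 0.71 in CAST. The female CAST value rested on 26 reads. The other members of Ghr had values closer to each other, as at chr15:3568091-3568813 with 4.12, 3.03, 5.04 and 4.05. Clock genes had few members: Npas2 had 2, and Bhlhe41, Cry1 and Hlf 1 each. At Bhlhe41, a repressor of the clock, the value was 2.62 in female B6 and between 5.07 and 5.87 in the other lists. Of the immediate early genes, Btg1 had 4 members and Dusp1, Dusp6 and Fos 3 each, with 8.62, 6.64, 10.5 and 6.98 at the strongest member of Fos (chr12:86795763-86796754).

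Stab2, an endothelial scavenger receptor, had a member 24509 bp upstream with 5.61, 2.57, 5.88 and 4.16, and Ehd3 had 3. Reln and Hand2 of the stellate cell list and Cldn4 and Spp1 of the bile duct list had 1 each, with 3.67 to 4.52 in male B6. The part that these other cells play in the shares above was not tested.

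Among the 12 strongest members, ranked by their lowest percentile of the −log10 q-value over the 4 lists, several stood apart in shape. The members nearest to Cr2 (chr1:197067766-197068085), Axin2 (chr11:108872961-108873434), Gm5614 (chr9:35112803-35113176) and Gm20546 (chr17:36368181-36368546) were 320, 474, 374 and 366 bp wide, well below the median of 857 bp. For the Cr2 site the fold enrichment was 40.5 in B6 males, 38.9 in B6 females, 40.1 in CAST males and 38.4 in CAST females, and for the Axin2 site 30.9, 29.9, 31.3 and 30.2. The background around these sites was high and moved with the pileup, at 84, 44.2, 101 and 40.4 reads for Cr2 and 123, 76.2, 146 and 58.6 for Axin2, so that the near-equal fold enrichments say little about the lists. Pileups there ran from 1589 to 4109 reads for Cr2 and from 1799 to 4602 for Axin2.

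Some of the strongest members resembled other parts of the genome. The 300 bp window of the Gm5614 member had 140 matches of at least 90% identity over 80% of its length. The Ly6c2, E030030I06Rik and Polr3k members had 60, 191 and 11 matches of 50 bp or more, themselves included, and the Polr3k and Cr2 members ended 94639 and 127347 bp before the last base of their chromosomes. Over all members, 99.6% of windows had 1 match and 13 had more. The narrow Axin2, Cr2 and Gm20546 members were among those with 1 match. Matches were counted in mm9 only, so 1 match does not show that a sequence is single-copy in the animals. What such copies contribute to the pileup of reads was not tested.

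The remaining strongest members had windows with 1 match and ordinary widths of 737 to 1310 bp. They were nearest to Tbl1xr1 (chr3:21885190-21886280), which encodes a subunit of a corepressor complex, St3gal1 (chr15:66977458-66978767), Asap1 (chr15:64280093-64281059), Bnip3 (chr7:146110741-146111820), a mitophagy gene, and Pcdh1 (chr18:38336652-38337388), a protocadherin gene. The St3gal1 member had a fold enrichment of 12.5 in B6 males, 10.1 in B6 females, 15 in CAST males and 12.4 in CAST females, on 739, 378, 788 and 298 reads. The Asap1 member had 17, 12.7, 18.9 and 16.7. In all 5 the female B6 list was lowest, as it was for the median over members.

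Motif words of hepatocyte factors were more frequent at members than beside them. Windows of 300 bp around the male B6 summit were scanned on both strands, and windows 3 kb outside each end of a member that overlapped no region served for comparison (6247 flanking windows). The HNF4 word CAAAGTCCA was in 84 members, or 2.51% (Wilson interval 2.03 to 3.1), against 0.432% of flanking windows. For HNF1 the word GTTAATNAT was in 3.92% against 0.736%. A FOXA word, TGTTTAC, was in 8.74% against 3.78%, and the C/EBP word TTGCNNAA was in 23.8% against 11.8%. Intronic constitutive regions of the same length had 2.56%, 3.73%, 9.4% and 23.2% in the same order, and promoter regions 0.898%, 1.06%, 3.21% and 9.26%.

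Other words of liver factors were also more frequent at members than beside them. The HNF6 word ATTGATT was in 7.9% of members against 3.46% of flanking windows, and the NFI word CTTGGCA in 11.2% against 4.93%. For nuclear receptors the DR1 word AGGNCAAAG, which can share bases with the HNF4 word, was in 6.1% against 1.95%. The D-box, spelled TTATGTAA and open to PAR bZIP factors such as HLF, was in 2.66% against 1.07%. A second FOXA spelling with TATTTAC differed less, with 6.64% against 4.88%. Of these 9 words at least 1 was in all but 1527 members, so that 45.7% of members had none, against 45.1% of intronic regions, 39.3% of remote regions, 71.3% of flanking windows and 78% of promoter regions. A further 92 members (2.75%) held 3 or more of them, against 2.68% of intronic regions, 4.4% of remote regions and 0.288% of flanking windows.

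**Figure D3:**
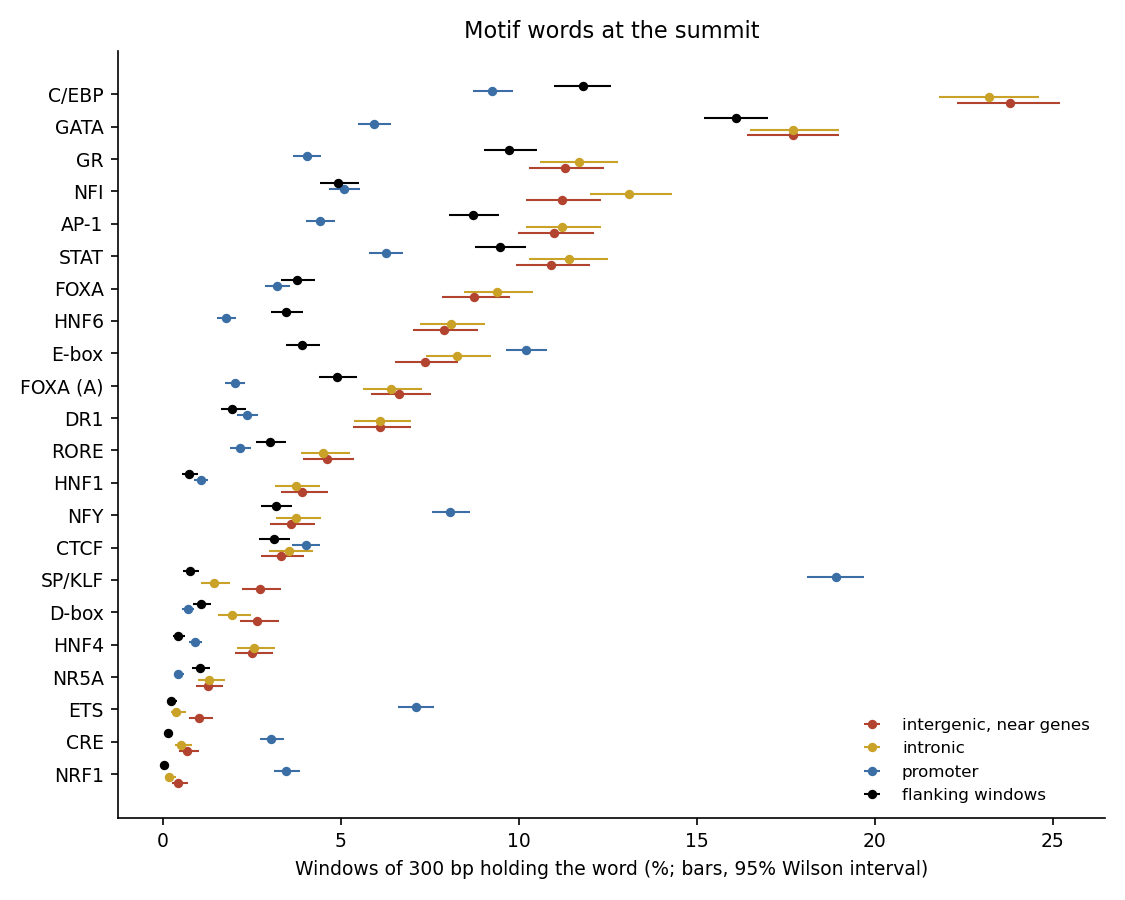
Percent of 300 bp windows that hold each motif word, for intergenic members, intronic and promoter constitutive regions and flanking windows, with 95% Wilson intervals. For C/EBP the members' 23.8% stands beside 23.2% of intronic regions, 9.26% of promoter regions and 11.8% of flanking windows.

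By the ratio of shares, words of signal-dependent factors differed less from the flanks than the 9 words above. The AP-1 word TGANTCA was in 11% of members and 8.71% of flanking windows, the STAT word TTCNNNGAA in 10.9% and 9.46%, and the glucocorticoid receptor word ACANNNTGT in 11.3% and 9.73%. GATA words (AGATAA) were in 17.7% and 16.1%. Among clock words, the E-box CACGTG was in 7.36% against 3.91% and the RORE word TAGGTCA in 4.61% against 3.01%. The member share was 1.88 times the flanking share for the E-box and 1.53 times for RORE, beside 1.26 for AP-1. For the NR5A word TCAAGGTCA the shares were 1.26% and 1.04%. Short palindromes with free bases match often by composition, and a missing word says only that these letters are not in the window.

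The CTCF word AGGNGGCAG was in 3.32% of members and 3.11% of flanking windows. A stricter spelling chosen after the data were seen, AGGGGGCGC, was in 19 members (0.569%), against 0.096% of flanking windows, 0.0873% of intronic regions and 1.49% of promoter regions. Words typical of promoters were in fewer members than promoter regions, but most were more frequent in members than in flanking windows. SP/KLF (GGGGCGGGG) was in 2.72% of members, 18.9% of promoter regions and 0.768% of flanking windows. In the same order the shares were 1.02%, 7.1% and 0.24% for ETS (CCGGAAGT), 0.688%, 3.04% and 0.144% for CRE (TGACGTCA), and 0.419%, 3.46% and 0.032% for NRF1 (GCGCATGCG), the last on 14 members and 2 flanking windows. The member share was 13.1 times the flanking share for NRF1, 4.78 times for CRE, 4.25 times for ETS and 3.54 times for SP/KLF, beside 5.81 for HNF4, 5.33 for HNF1, 2.31 for FOXA and 2.02 for C/EBP. NFY (CCAATNAG) differed little from the flanks, with 3.59%, 8.07% and 3.17%.

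Words of several factors were denser around the summit than farther out. The density of the HNF4 word within 50 bp of the summit was 6.75 times that between 800 and 1000 bp away, on 27 and 16 words. This ratio was 4 for HNF1, 3.08 for the promoter word SP/KLF (37 and 48 words), 2.42 for NFI, 2.21 for DR1, 2.15 for the D-box, 1.9 for C/EBP and 1.88 for FOXA. It was 1.24 for STAT, 1.19 for AP-1, 1.12 for GATA and 0.902 for the first CTCF word. Several words were densest beside the summit and not at it. FOXA words peaked at 68 per 50 bp between 150 and 100 bp before it, against 45 and 46 in the bins next to it, and C/EBP words at 181 in the same bin, against 133 and 148. HNF4 words peaked at 23 in that bin, against 7 and 20. HNF1 words peaked at 31 between 100 and 150 bp after the summit, against 20 and 17. AP-1 words peaked at 92 between 150 and 200 bp after it, against 52 and 75, so the ratio within 50 bp does not give their highest density.

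**Figure D4:**
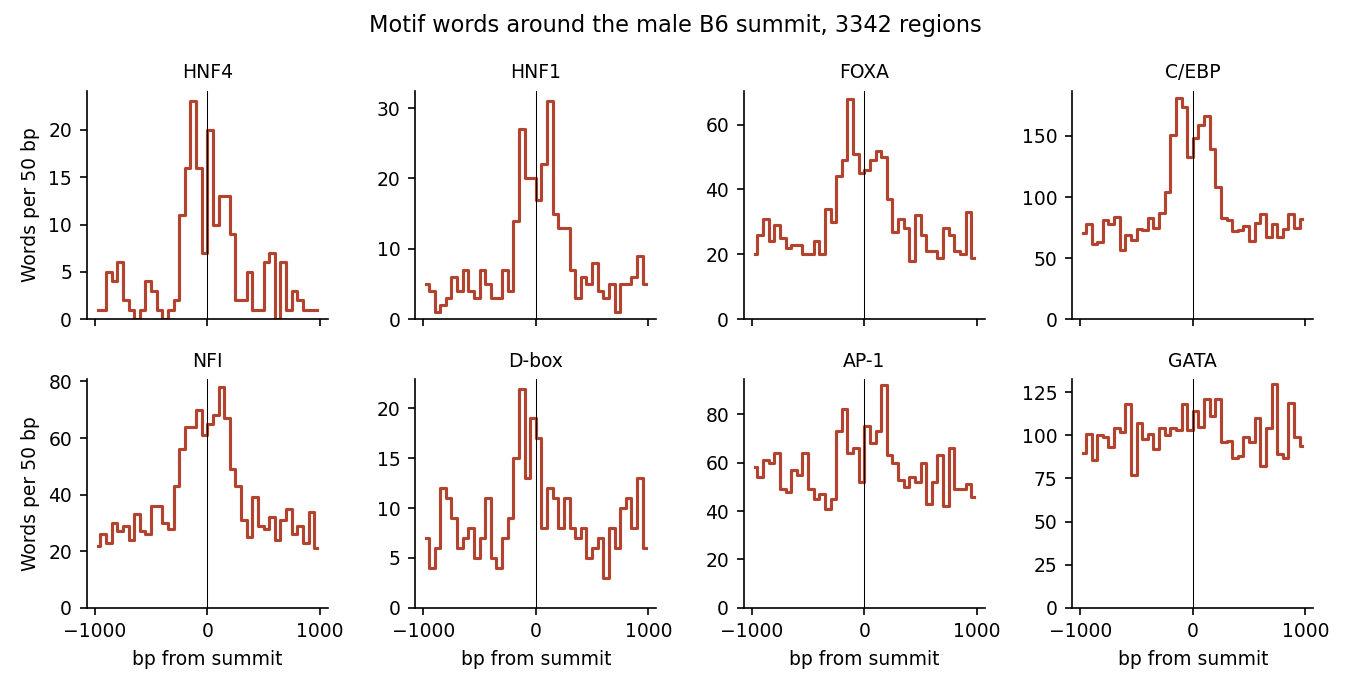
Number of motif words per 50 bp from 1000 bp before to 1000 bp after the male B6 summit, summed over 3342 members, for 8 factors. HNF4 and HNF1 words gather near the summit, 6.75 and 4 times as dense within 50 bp of it as at the edges. Both are densest 100 to 150 bp from it, while GATA words (1.12) run nearly flat.

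For most words the members with and without it differed little in level beside the spread over members. Members with the FOXA word had a median fold enrichment in male B6 of 5.29 against 5.06 without it, and members with the C/EBP word 5.11 against 5.07. With 0 of the 9 hepatocyte words the medians of the male B6 and female CAST lists were 5.04 and 4.44, and with 3 or more they were 5.45 and 4.56. Members with an E-box had 5.64 against 5.04 in male B6 and 4.85 against 4.47 in female CAST. Wider gaps were seen for rare words, with 6.22 against 5.08 in male B6 for the 14 members with NRF1 and 6.02 against 5.08 for the 23 with CRE. STAT words went with 6.14 against 5.57 in male CAST but 4.88 against 5.09 in male B6. HNF4 words went with 4.01 against 4.5 in female CAST but 5.25 against 5.08 in male B6.

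A minority of members were rich in CpG, that is, with at least 50% G and C and an observed to expected CpG ratio of at least 0.6. They numbered 264, or 7.9%, against 7.84% of the 765 exonic regions, 1.28% of intronic regions, 0.688% of flanking windows and 70.9% of promoter regions. Median GC content was 48.3% over all members, 45% in flanking windows and 63.7% at promoters. CpG-rich members had the SP/KLF word in 18.9%, the ETS word in 5.68% and the E-box in 16.7%, against 1.33%, 0.617% and 6.56% of the other 3078 members. The C/EBP and FOXA words were in 9.09% and 2.65% of them, against 25% and 9.26%. Their median fold enrichment was 5.99 in male B6 against 5.03 for the others, and their median distance from a start site was 14473 bp against 21462 bp. For comparison, promoter regions had SP/KLF in 18.9%, ETS in 7.1%, C/EBP in 9.26%, FOXA in 3.21% and the E-box in 10.2%. The Axin2, Cr2, Gm20546 and Bnip3 members, all among the 12 strongest, were CpG-rich, with a GC content of 63.3%, 58.7%, 71.7% and 55.3%. Hlf, whose E-boxes are shown above, had a GC content of 70.3% in its window.

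Since a member had to have a peak in all 4 lists, sites absent from either sex or strain were left out by the rule, which limits the ratios that members can show. Ratios of fold enrichment between 2 lists were centred on the median of all constitutive regions, which stood at a log2 of 0.42 for male over female in B6, 0.26 for male over female in CAST, 0.08 for CAST over B6 in males and 0.25 for CAST over B6 in females. In B6, 11 members were at least 2-fold higher in males (0.329%, beside 0.15% of all constitutive regions) and 2 in females (0.0598%, beside 0.0333%). In CAST the counts were 7 for males (0.209%, beside 0.178%) and 1 for females (0.0299%, beside 0.0389%). When the ratio was made from summit pileups over the background of the whole genome instead, the split in B6 turned to 15 male (0.449%, beside 0.311% of all constitutive regions) and 39 female members (1.17%, beside 0.706%). In CAST it turned to 23 male (0.688%, beside 0.356%) and 24 female (0.718%, beside 0.439%). By fold enrichment, males were at least 1.5-fold higher in B6 at 3.38% of members and 3% of intronic regions. In CAST these shares were 4.13% and 3.52%. Females were so at 2.48% and 2.36% in B6 and at 1.8% and 2.15% in CAST. A wide sex ratio was thus not particular to members.

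No member was at least 2-fold higher in males of both strains (0.0111% of all constitutive regions were), nor in females of both strains (0.00556%). With pileups over the background of the whole genome 3 members were so in males (0.0898%, beside 0.05%) and 2 in females (0.0598%, beside 0.0167%). At a threshold of 1.5-fold, 19 members were higher in males of both strains (0.569%, beside 0.333%) and 3 in females of both strains (0.0898%, beside 0.111%). The strains share no library, so these counts come from separate measurements. Of the 19 male-higher members, 6 held the C/EBP word (31.6%, beside 23.8% of all members), 2 the FOXA word (10.5%, beside 8.74%), and 0 the STAT or HNF6 word (beside 10.9% and 7.9%), counts too small to set the set apart.

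The member nearest to Gsta1 (chr9:78064738-78065477), 12986 bp upstream, had a fold enrichment of 9.3 in B6 males, 3.42 in B6 females, 8.3 in CAST males and 3.86 in CAST females. Both male lists were far above both female lists, and the centred ratio was 2.03-fold in B6 and 1.79-fold in CAST. Its pileups were 226 reads (exact Poisson interval 197 to 257), 50 (37.1 to 65.9), 188 (162 to 217) and 36 (25.2 to 49.8). A member 92046 bp upstream of Tbx20 (chr9:24670792-24671639) had 8.29, 3.15, 8.89 and 3.02, or 1.97-fold and 2.45-fold higher in males. Those nearest to Mfsd2a, which encodes a lipid transporter, Prl5a1 and Vmn2r17 were 1.75, 1.71 and 1.86-fold higher in males in B6 and 1.87, 2.24 and 1.7-fold in CAST. Their female pileups were 35 reads in B6 and 30 in CAST for Mfsd2a, 45 and 21 for Prl5a1, and 46 and 43 for Vmn2r17. The Tbx20 member had 46 and 26.

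On the female side the member at chr6:37567271-37568084 near Akr1d1 was highest in rank, 1.7-fold higher in females in B6 and 2.37-fold in CAST. It rested on 39, 46, 38 and 64 reads, with intervals of 27.7 to 53.3 in male B6 and 33.7 to 61.4 in female B6 that overlap. Its window held sequence repeated 210714 times in stretches of 50 bp or more, and that of Elfn1 1506 times, and the part of this in the ratios was not tested. Members near Elfn1 (1.65 and 1.63-fold), Pvrl1 (1.74 and 1.59-fold), Gm17461 (1.52 and 1.49-fold) and Kirrel3 (1.48 and 1.63-fold) rested on 27 to 118 reads per list. All 5 were weak in male B6, with values from 2.08 to 2.48. In female CAST the Akr1d1 and Kirrel3 members had 4.82 and 5.35, above the members' median of 4.49, and the others were below it.

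Strain ratios were wider. In males 64 members were at least 2-fold higher in CAST (1.92%, beside 1.11% of all constitutive regions) and 22 in B6 (0.658%, beside 0.344%). In females 49 were higher in CAST (1.47%, beside 0.767%) and 20 in B6 (0.598%, beside 0.306%). Members past the fold in both sexes numbered 23 for CAST (0.688%, beside 0.356%) and 9 for B6 (0.269%, beside 0.122%). At 1.5-fold they were 126 (3.77%, beside 2.17%) and 49 (1.47%, beside 0.883%). These counts depended on the measure. With pileups over the background of the whole genome they were 212 for CAST and 76 for B6 in males (6.34% and 2.27%, beside 3.7% and 1.34%), 142 and 55 in females (4.25% and 1.65%, beside 2.26% and 1.02%), and 87 and 27 in both sexes (2.6% and 0.808%, beside 1.38% and 0.45%). Among the 1329 members with all 4 peaks at or above the median −log10 q-value, 5 were higher in CAST and 3 in B6 in males (0.376% and 0.226%, beside 0.305% and 0.0586% of the 8530 constitutive regions so chosen). In both sexes 0 were higher in CAST and 0 in B6, beside 0.0703% and 0.0117% of those regions. The middle 90% of log2 ratios in males ran from -0.52 to 0.74 for members, from -0.49 to 0.77 for intronic regions and from -0.44 to 0.42 for promoter regions. CAST was at least 1.5-fold higher in males at 8.56% of members and 10.4% of intronic regions, so a wide strain ratio was not particular to members.

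**Figure D5:**
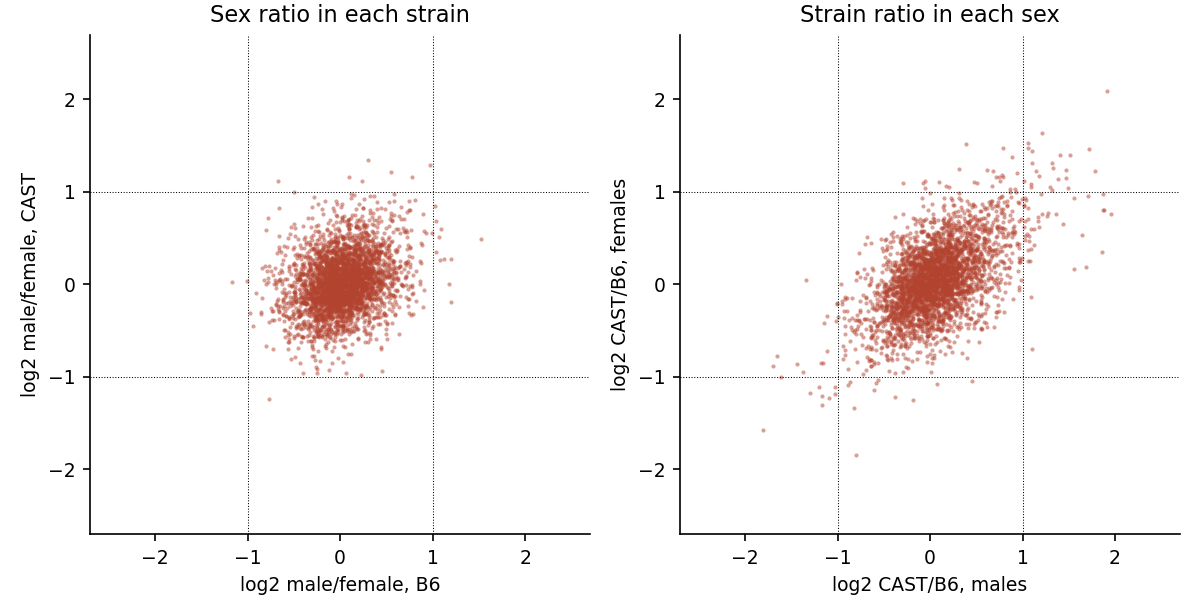
Centred log2 ratios of fold enrichment for the 3342 members, male over female in B6 against CAST (left) and CAST over B6 in males against females (right), 1 point a member. Dotted lines mark 2-fold; by this measure no member lies past them in both strains on the left, while 23 and 9 do in both sexes on the right.

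The member with the widest strain ratio lay 54673 bp downstream of 9030619P08Rik (chr15:75206923-75207586). Its fold enrichment was 3.49 in B6 males, 2.68 in B6 females, 14 in CAST males and 13.5 in CAST females. The CAST lists were 3.78-fold higher in males and 4.25-fold in females, on 256 (226 to 289) against 56 (42.3 to 72.7) reads in males. A member upstream of Gm17419 (chr13:29017704-29018334) had 2.81, 2.28, 9.78 and 7.45. One near Pik3r1 (chr13:102602066-102602813), which encodes a regulatory subunit of a lipid kinase, had 2.87, 2.55, 8.69 and 7.94, and its window had 47 matches of 50 bp or more. Members near Ccdc121 (2.65 and 2.63-fold) and Gm13185 (2.5 and 2.49-fold) completed the 5. In each of the 5 both CAST lists exceeded both B6 lists, and the sexes stayed within 1.25-fold of each other after centring.

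In the other direction the member near Klrb1c (chr6:128752871-128753435) had a fold enrichment of 11 in B6 males, 5.9 in B6 females, 3.34 in CAST males and 2.35 in CAST females. It was 3.49-fold higher in B6 in males and 2.98-fold in females. The member near Xdh (chr17:74345076-74346311), which encodes xanthine dehydrogenase, had 14.7, 8.65, 6.92 and 4.14, with 469 reads in male B6 and 134 in male CAST. Members near Zdhhc13 (2.46 and 2.25-fold), Dio3os (2.25 and 2.32-fold) and 4732465J04Rik (2.3 and 2.17-fold) were also past the fold in both sexes. CAST reads were aligned to a genome with CAST variants written in, and how mapping differed between the genomes at these sites was not tested. The sequences shown above are B6 reference sequence, so no allele of CAST is shown or compared.

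Among the 23 members higher in CAST in both sexes, 4 held the C/EBP word (17.4%, beside 23.8% of all members), 3 the FOXA word (13%, beside 8.74%), 2 the HNF6 word (8.7%, beside 7.9%) and 0 the HNF4 word (beside 2.51%). Of the 9 higher in B6, 1 held the C/EBP word and 0 the FOXA, HNF6 or HNF4 word. Sets of this size give no more than a description, and the other liver words were not counted in them. Past 1.5-fold between strains in either direction were 6.44% of the 264 CpG-rich members and 13.2% of the others in males, and 6.44% and 12.9% in females. Over all constitutive regions 5.52% were higher in CAST and 2.76% in B6 in males, and the difference between CpG-rich and other members was not tested.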

How the data were processed

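DNase-seq of liver nuclei from 16 libraries, 4 for each sex and strain, was examined as 1 pooled peak list a group. Per the submitters' processing notes the lists rest on Bowtie2, MACS2 and mm9. According to the methods, only uniquely mapped reads were kept, CAST reads were aligned to mm9 with CAST variants written in and converted back, and blacklisted regions were removed. The authors deposited a fold enrichment for each peak, the pileup at its summit over the background. The authors also deposited the −log10 p-value of each summit, and a score, the −log10 q-value, along with the summit position. No replicate values enter these lists, and the depths of single libraries, which the study tabulates, were not used here.

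Members and lists were chosen with earlier results of these data known. Python 3.11.15 with numpy 2.4.6, pandas 2.3.3 and scipy 1.17.1 was used. Where a region held several peaks of a list, that with the highest −log10 q-value stood for it. Gene bodies (37310) and start sites (75543, of 26225 genes that were protein-coding, lincRNA or processed transcript) came from the GENCODE annotation of mm9. Summit pileups were recovered from fold enrichment and −log10 p-value, and 99.9% or more were whole within 0.02 reads. Intervals are at 95%. Windows were matched to the genome with BLAST 2.17.0 at 90% identity over 80% of their length. Functions were tested on simulated data with known answers.

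Named were the 12 members with the highest lowest percentile of the −log10 q-value over the lists, the 5 members of each direction with the largest smaller ratio of both strains or both sexes, the 10 genes nearest to most members, up to 4 genes with most members from each gene list, and the members at the distance limits. Other members of those genes, the printed sequences of listed genes and the CTCF core word were chosen after their values were seen. Of the listed genes, Hmgcs1 was not matched in the annotation, and 2 genes stood in more than 1 list. Some items are not reported here. Alternatives were tried for the overlap, peak threshold, list size, gene set, distance limits, measure of level, centring, fold and motif window.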

Additional observations from a re-analysis of the deposited data

Results flagged for a closer look

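At 3 of 3342 members the sexes differed in opposite directions in the strains, each at 1.5-fold or more, with the female list higher in B6 and the male list in CAST. Over all 17999 constitutive regions 6 did so, and 2 of these regions but 0 members did the reverse. The difference between the strains was not tested. The member nearest to Gm16176 (chr10:87250356-87250937) had a centred log2 ratio of male over female of -0.67 for B6 and 0.82 for CAST. Its fold enrichment was 3, 3.55, 10.2 and 4.81 in male B6, female B6, male CAST and female CAST. For Kcns2 (chr15:34724612-34725813), a potassium channel subunit gene, the log2 ratio was -0.68 in B6 and 1.12 in CAST, and for Myl3 (chr9:110661059-110661846), a muscle myosin light chain gene, it was -0.78 and 0.72. Kcns2 also had strain ratios in opposite directions, with a log2 of CAST over B6 of 1.10 in males and -0.70 in females. It was the 1 member to do so at 1.5-fold, beside 3 of all constitutive regions. In the reverse direction there were 0 members and 1 constitutive region. In all 3 the male CAST list was the highest, on 192, 141 and 140 reads against 48, 66 and 32 in male B6.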

How the results depend on the processing

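Each group was 1 pooled list, so no replicate could be left out, and intervals cover counting error only. No paired analysis was possible because the lists carry no replicate values. The alternative without soft-masked bases was not run, since the genome used holds none. Of 111 alternative values 68 stayed within the limits set for a change and 43 moved. Peaks at or above the median −log10 q-value of all peaks left 1329 members, fewer by construction. Members made up 15.6% of constitutive regions with those peaks, 20.2% with protein-coding genes only, 19.7% with start sites beyond 1 kb and 14.9% with start sites within 50 kb, where the male B6 median fold enrichment was 4.99. With summit pileups over the genome-wide background, members past 2-fold numbered 39 for females in B6 (1.17%, beside 0.706% of all constitutive regions), 23 for males (0.688%, beside 0.356%) and 24 for females in CAST (0.718%, beside 0.439%), 212 for CAST (6.34%, beside 3.7%) and 76 for B6 (2.27%, beside 1.34%) in males, and 142 (4.25%, beside 2.26%) and 55 (1.65%, beside 1.02%) in females. In both strains they were 3 for males (0.0898%, beside 0.05%) and 2 for females (0.0598%, beside 0.0167%), and in both sexes 87 for CAST (2.6%, beside 1.38%) and 27 for B6 (0.808%, beside 0.45%). Of the 1329 members with all 4 peaks at or above the median, 5 were past 2-fold for CAST (0.376%, beside 0.305% of 8530 constitutive regions so chosen) and 3 for B6 (0.226%, beside 0.0586%) in males, and 3 for CAST (0.226%, beside 0.188%) and 0 for B6 (beside 0.0352%) in females. That setting left 0 for males and 0 for females in either strain (beside 0% to 0.0117%), and 0 for either strain in both sexes (beside 0.0703% for CAST and 0.0117% for B6). At 1.5-fold there were 113 for males (3.38%, beside 2.04% of all) and 83 for females (2.48%, beside 1.74%) in B6, 138 (4.13%, beside 2.61%) and 60 (1.8%, beside 1.51%) in CAST, 286 for CAST (8.56%, beside 5.52%) and 136 for B6 (4.07%, beside 2.76%) in males, and 273 (8.17%, beside 4.97%) and 142 (4.25%, beside 3.42%) in females, with 19 (0.569%, beside 0.333%) and 3 (0.0898%, beside 0.111%) in both strains and 126 (3.77%, beside 2.17%) and 49 (1.47%, beside 0.883%) in both sexes. In windows of 200 bp the FOXA word was in 5.51% of members, HNF4 in 1.44%, C/EBP in 15.4% and CTCF in 2.03%, fewer by construction. The cause of the other changes was not tested.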
